A study of Mus musculus with 8 samples.

Results

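The respiratory chain genes described here were the protein-coding genes of the deposited count table whose symbol starts with Ndufa, Ndufb, Ndufc, Ndufs, Ndufv, Uqcr, Atp5 or mt-, or with Cox followed by 4 to 8 and a, b or c, together with Sdha, Sdhb, Sdhc and Sdhd. They numbered 105 of 54532 genes in the table, of which 22046 are protein coding. Of these 105 genes, 92 lie on nuclear chromosomes and 13 on the mitochondrial genome. The nuclear genes comprised 7 core subunits, 29 accessory subunits and 8 assembly factors (Ndufaf genes) of complex I, 4 genes of complex II, 8 of complex III, 18 of complex IV and 18 of complex V. The choice by symbol leaves out, among others, Cyc1 of complex III and Cox4i1 and Cox4i2 of complex IV, whose values are given separately. Ndufa4 and Ndufa4l2 are counted with complex IV, where their proteins belong. After genes with low counts were removed, 99 of the 105 were tested, 86 nuclear and all 13 mitochondrial.

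Wild-type mouse embryonic fibroblasts, a mixed culture of connective tissue cells from embryos, were kept for 4 days in 1 of 4 media, with 2 RNA-seq libraries for each medium. CFAE+8+MSC held CHIR99021, which inhibits the kinase GSK-3, Forskolin, which activates adenylyl cyclase, AM580, which activates retinoic acid receptor alpha, EPZ04777 (spelled as in the labels), A-83-01, an inhibitor of the TGF-beta type I receptor, and MSC2530818, an inhibitor of the kinases CDK8 and CDK19. CFAE+6 held CHIR99021, Forskolin, AM580, EPZ04777 and E-616452, another inhibitor of the TGF-beta type I receptor. CFAE+8 held CHIR99021, Forskolin, AM580, EPZ04777 and A-83-01. MEF medium held none of these compounds. All cells therefore shared the wild-type genotype and the day of harvest, and the 3 cocktails shared CHIR99021, Forskolin, AM580 and EPZ04777. CFAE+8+MSC and CFAE+8 differed by MSC2530818, and CFAE+6 and CFAE+8 by the receptor inhibitor. CFAE+8+MSC and CFAE+6 differed in both. Doses, the base medium of the cocktails and the sex or passage of the cells are not in the labels used here. The study asked which compounds move fibroblasts towards chemical reprogramming, with CDK8 as a candidate barrier.

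The respiratory chain passes electrons from NADH (complex I) and succinate (complex II) through ubiquinone, complex III and cytochrome c to oxygen at complex IV, and complex V uses the resulting proton gradient to make ATP. Nuclear and mitochondrial genomes both supply subunits of complexes I, III, IV and V, whereas all subunits of complex II are nuclear. The mitochondrial genome is transcribed from both strands into long precursors that are cut at tRNA genes, and most of its protein-coding genes lie on the heavy-strand transcript, mt-Nd6 being the exception. Nuclear genes of the chain are known targets of NRF1, GABPA (an ETS factor), the estrogen-related receptors (ERR) and YY1, which are coactivated by the PGC-1 family.

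Several mitochondrial genes have a near-identical copy on chromosome 1, and the sequence of mt-Nd4l, the gene with the largest difference between media, is shown because it cannot be told from its copy over nearly its whole length. The following line gives the gene on the plus strand of the mitochondrial genome, chrM:9877-10173 (mm10, 297 bases), with the 3 bases that its copy Gm10222 lacks in capitals.
mt-Nd4l: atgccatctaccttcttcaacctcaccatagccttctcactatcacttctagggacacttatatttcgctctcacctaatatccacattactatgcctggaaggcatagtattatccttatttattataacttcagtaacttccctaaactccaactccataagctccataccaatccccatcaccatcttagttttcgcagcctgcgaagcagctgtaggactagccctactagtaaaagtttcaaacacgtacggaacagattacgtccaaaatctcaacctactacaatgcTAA

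Stretches of promoters of 5 nuclear members are shown because they hold motifs of the factors named above, in members that rose and in members that fell. They were read from RefSeq promoter sequences of build GRCm38.p6, each 250 bases before to 50 bases after a gene's start. The motifs searched on both strands were NRF1 (GCGC, any base, then TGCGC), ERR (AAGGTCA), YY1 (AAGATGGCG) and ETS (CCGGAAGT), and capitals mark the matches, NRF1 on either strand in all but Atp5g3, and ERR, on the opposite strand, in Atp5g3. The Atp5g3 promoter also holds an NRF1 motif outside the stretch shown.
Sdha, chr13:74350241-74350350, minus strand: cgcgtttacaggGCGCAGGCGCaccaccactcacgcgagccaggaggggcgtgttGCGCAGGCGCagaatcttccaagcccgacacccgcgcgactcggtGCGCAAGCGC
Atp5g3, chr2:73911327-73911398, minus strand: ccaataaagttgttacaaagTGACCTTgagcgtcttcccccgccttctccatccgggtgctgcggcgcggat
Ndufaf4, chr4:24897953-24898012, plus strand: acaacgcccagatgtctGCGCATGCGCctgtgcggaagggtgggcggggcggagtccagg
Cox6a1, chr5:115349059-115349128, minus strand: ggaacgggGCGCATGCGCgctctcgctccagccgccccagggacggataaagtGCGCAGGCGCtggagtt
Ndufa11, chr17:56717680-56717741, plus strand: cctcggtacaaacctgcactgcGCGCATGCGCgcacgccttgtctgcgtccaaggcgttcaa

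A RefSeq promoter was matched to 74 of the nuclear members by symbol. The NRF1 motif was found in 19 of them (25.7%), against 1166 of 10591 tested coding genes (11.0%) and 4.6% of all 32851 promoters. The ERR motif was found in 8 members (10.8%), against 3.7% of tested coding genes, and the YY1 motif in 8 members (10.8%), against 3.4%. The ETS motif was found in 5 members (6.8%), against 8.6% of tested coding genes. A match is a description of letters and not evidence of binding.

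Library totals lay between 10958430 and 11913143 counts, so that 3 counts stood for 0.254 to 0.285 CPM. The unit CPM expresses counts relative to the library total, here scaled by TMM, a scaling that assumes that most genes do not change, with factors from 0.918 to 1.04. Fold changes and adjusted p-values come from edgeR's quasi-likelihood test over all 15470 genes tested, and a gene is called higher or lower at a Benjamini-Hochberg adjusted p below 0.05. Whether both libraries of a medium stem from different dishes is not stated in the labels, and p-values here reflect only how far these libraries spread, which may be technical. The summed level of 8 fibroblast markers (collagens, Dcn, Lum, Pdgfra, Thy1 and Vim) was 11740 to 13060 CPM in the cocktails and 29870 to 30590 CPM in MEF medium, with no marker at 0. The markers did not fall together, since Col1a1, Col1a2, Col3a1, Vim and Dcn were called lower in each cocktail while Thy1, Pdgfra and Lum were called higher, and these directions held by total counts. Thy1 stood at 2.21, 2.25 and 1.61 times its MEF medium level in CFAE+8+MSC, CFAE+6 and CFAE+8. The 7 macrophage markers summed to 15.1 to 33.0 CPM in the cocktails and 168.5 to 168.8 CPM in MEF medium. Most of the MEF medium sum was Lyz2, with a mean of 124 CPM. Lyz2, Csf1r, Adgre1, C1qa, Tyrobp and Ptprc were called lower in each cocktail. Cd68 was called lower in CFAE+6 (log2 -1.23) but not in CFAE+8+MSC (-0.28) or CFAE+8 (-0.14). The 4 endothelial markers summed to 51.3 to 59.9 CPM in CFAE+8+MSC and CFAE+6, 24.0 to 26.2 CPM in CFAE+8 and 16.9 to 17.2 CPM in MEF medium. Most of each sum was Kdr, and Kdr and Cdh5 were called higher in each cocktail. Emcn went the other way and was called lower in each. It had a mean of 2.24 CPM in MEF medium and 0.0848 CPM in CFAE+8, and was at 0 in CFAE+8+MSC and CFAE+6. Pecam1 was not tested. The 4 epithelial markers summed to 25.4 to 33.5 CPM in CFAE+8+MSC and CFAE+6, 8.91 to 9.56 CPM in CFAE+8 and 7.51 to 8.79 CPM in MEF medium. The sum of the 7 striated muscle markers lay between 9.82 and 32.5 CPM, and that of the 3 red blood cell markers at or below 0.366 CPM, in all libraries. Among the muscle markers, Tnnt3 was called higher and Myh3, Tnnt2 and Myog lower in each cocktail. Tnni3 was called lower in CFAE+8+MSC and CFAE+6, and Myh6 and Ckm were not tested. The part of these cell type markers in the results below was not tested.

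Mitochondrially encoded transcripts were more abundant in every cocktail library than in every MEF medium library, while the nuclear-encoded transcripts differed less in sum. The 13 mitochondrial genes together had 21227 and 20167 CPM in CFAE+8+MSC, 20985 and 19764 CPM in CFAE+6 and 18371 and 18801 CPM in CFAE+8, against 12901 and 12719 CPM in MEF medium. The 92 nuclear genes together had 7738 and 7851 CPM in CFAE+8+MSC, 8249 and 8592 CPM in CFAE+6 and 8025 and 7988 CPM in CFAE+8, against 7673 and 7241 CPM in MEF medium. The nuclear sums of all 6 cocktail libraries lay above both MEF medium sums, by a smaller margin than the mitochondrial sums. The margin depended on the scaling. As a share of all counts, without TMM, mean nuclear sums were 1.15, 1.26 and 1.21 times the MEF medium share in CFAE+8+MSC, CFAE+6 and CFAE+8. Mean mitochondrial sums were 1.77, 1.77 and 1.64 times that share.

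Mean mitochondrial sums were 20697 ± 749.5 CPM in CFAE+8+MSC, 20374 ± 863 CPM in CFAE+6 and 18586 ± 304 CPM in CFAE+8, against 12810.0 ± 129 CPM in MEF medium (SD, n = 2 libraries each), which makes 1.62, 1.59 and 1.45 times the MEF medium level. Mean nuclear sums were 7795 ± 79.8 CPM in CFAE+8+MSC, 8420.4 ± 243 CPM in CFAE+6 and 8006 ± 26.0 CPM in CFAE+8, against 7457 ± 306 CPM in MEF medium, or 1.05, 1.13 and 1.07 times that level. The ratio of the mitochondrial to the nuclear sum was 2.74 and 2.57 in CFAE+8+MSC, 2.54 and 2.30 in CFAE+6 and 2.29 and 2.35 in CFAE+8, against 1.68 and 1.76 in MEF medium. No ratio of a cocktail library fell to those of MEF medium. CFAE+8+MSC had the highest ratios, above all others, and CFAE+6 and CFAE+8 overlapped. These sums are a description and are given without a test, and reads shared with chromosome 1 copies may be missing from them. Bulk RNA cannot tell fewer cells of a type from less RNA per cell.

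**Figure D1:**
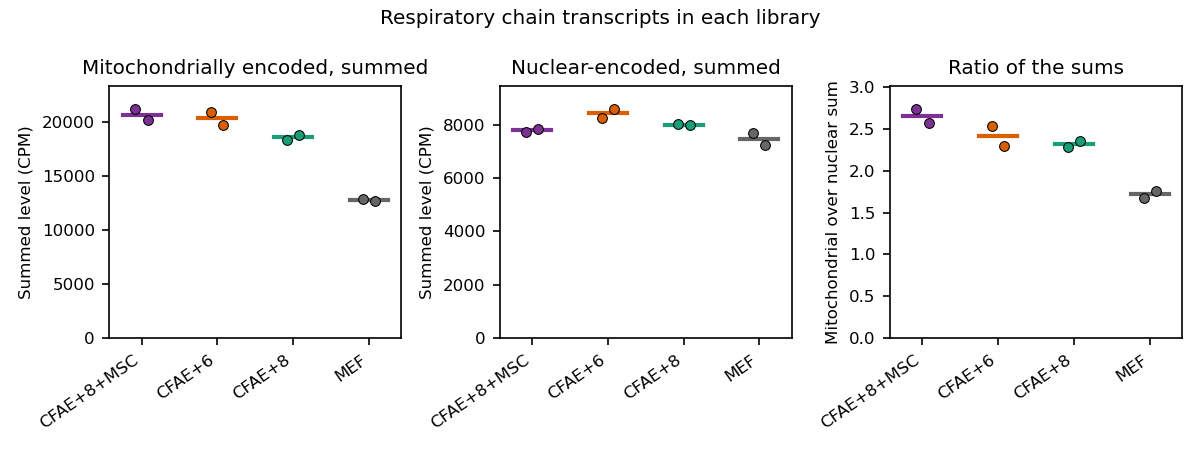
Summed levels in CPM (vertical axes, from 0) of the 13 mitochondrially encoded and 92 nuclear-encoded genes and the ratio of the 2 sums, by medium; points are libraries and bars are means of 2. The mitochondrial sums of the 6 cocktail libraries lie between 18371 and 21227 CPM, above the 2 MEF medium libraries, whereas the nuclear sums lie between 7241 and 8592 CPM in all 8.

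By complex, the mitochondrial sum of complex I was 8877 ± 248 CPM in CFAE+8+MSC, 8720.5 ± 443 CPM in CFAE+6 and 7864 ± 154 CPM in CFAE+8, against 5599 ± 108 CPM in MEF medium (SD, n = 2 each). The nuclear sum of complex I, assembly factors included, was 1783 ± 51.5, 1935 ± 106 and 1869 ± 9.19 CPM in the same order, against 1869 ± 74.9 CPM in MEF medium. The nuclear complex I sums overlapped between the cocktails and MEF medium. For complex IV the nuclear sum was 1349.8 ± 16.5 CPM in CFAE+8+MSC, 1478 ± 23.8 CPM in CFAE+6 and 1336 ± 17.8 CPM in CFAE+8, against 1233 ± 82.2 CPM in MEF medium. For complex V it was 3406 ± 3.18, 3673 ± 94.4 and 3526 ± 2.62 CPM in that order, against 3156 ± 122 CPM in MEF medium. The nuclear sum of complex V was above both MEF medium libraries in each cocktail library.

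Per kilobase of gene length, the median level of the 13 mitochondrial genes was 961 CPM per kb in CFAE+8+MSC, 972 in CFAE+6 and 863 in CFAE+8, against 618 CPM per kb in MEF medium. The median over the 86 tested nuclear genes was 35, 37.2 and 33.7 CPM per kb in the same order, against 34.7 CPM per kb in MEF medium. The highest level per kb was that of mt-Co1 among mitochondrial genes and of Cox8a among nuclear genes, in all 4 media. Levels of mitochondrial genes with a chromosome 1 copy depend on how shared reads were counted, which is unknown.

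Of the 13 mitochondrial genes, 11 were called higher in CFAE+8+MSC than in MEF medium, 10 in CFAE+6 and 10 in CFAE+8. Among all genes tested, 31.9%, 31.6% and 30.8% were called higher in these 3 comparisons, and 64.1%, 63.1% and 62% were called in either direction. The median log2 fold change of the 13 was 0.67 in CFAE+8+MSC, 0.65 in CFAE+6 and 0.53 in CFAE+8, while the median over all genes tested was 0.01, 0.02 and 0.01. By edgeR 0 of the 13 were called lower in any of the 3 comparisons, as was the count at an unadjusted p below 0.05 and the count called by DESeq2. DESeq2 called 9, 8 and 8 of the 13 higher in CFAE+8+MSC, CFAE+6 and CFAE+8. Of the 28024 genes with any count it called 14.4%, 14.4% and 13.6% higher. The 3 comparisons share the MEF medium libraries and are not independent of each other.

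The genes with the least shared sequence were mt-Cytb, mt-Nd1, mt-Nd2, mt-Nd5 and mt-Nd6, with under 10% of their 50-base stretches in another annotated gene. They held 53.2% to 54.2% of the mitochondrial counts in each library. mt-Cytb, the only mitochondrial subunit of complex III, had 3773 and 3549 CPM in CFAE+8+MSC, 3679.5 and 3506 in CFAE+6 and 3313 and 3343 in CFAE+8, against 2132 and 2079.7 CPM in MEF medium. All cocktail libraries lay above both MEF medium libraries. The log2 fold changes against MEF medium were 0.80 ± 0.03, 0.77 ± 0.03 and 0.66 ± 0.03 in CFAE+8+MSC, CFAE+6 and CFAE+8 (± SE, adjusted p = 2.6e-18, 5.8e-18 and 2.6e-16).

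mt-Nd2, a proton-pumping subunit of complex I, had 1749.7 and 1671 CPM in CFAE+8+MSC, 1738 and 1606 in CFAE+6 and 1444 and 1495 in CFAE+8, against 885 and 859 CPM in MEF medium, and the groups did not overlap with MEF medium. Against MEF medium, mt-Nd2 rose by 0.97 ± 0.04, 0.94 ± 0.04 and 0.75 ± 0.04 on the log2 scale in CFAE+8+MSC, CFAE+6 and CFAE+8 (± SE, adjusted p = 1.0e-18, 2.3e-18 and 5.1e-16). These were the largest changes among the 7 mitochondrial genes above 100 CPM. mt-Nd1, another membrane subunit of complex I, differed from MEF medium by 0.63 ± 0.04, 0.59 ± 0.04 and 0.50 ± 0.04 on the log2 scale in CFAE+8+MSC, CFAE+6 and CFAE+8. mt-Nd5 differed by 0.58 ± 0.04, 0.55 ± 0.04 and 0.37 ± 0.04 in the same order (largest adjusted p = 1.4e-09 for these 2 genes).

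mt-Nd6 is the complex I subunit encoded on the light strand. It had 633 and 601 CPM in CFAE+8+MSC, 652 and 616 in CFAE+6 and 559.9 and 581 in CFAE+8, against 483 and 437 CPM in MEF medium, again without overlap between cocktails and MEF medium. On the log2 scale mt-Nd6 differed from MEF medium by 0.42 ± 0.05, 0.46 ± 0.05 and 0.31 ± 0.05 in CFAE+8+MSC, CFAE+6 and CFAE+8 (± SE, adjusted p = 8.2e-09, 1.4e-09 and 2.1e-06). These were the smallest changes among the 7 mitochondrial genes above 100 CPM. The difference between mt-Nd6 and the heavy-strand genes was not tested. Without strand in the counts, reads of the heavy-strand precursor opposite mt-Nd6 cannot be told from mt-Nd6 itself.

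mt-Co1, the catalytic subunit of complex IV, had the highest counted level of the 13. It stood at 8318 and 7775 CPM in CFAE+8+MSC, 8189 and 7758 in CFAE+6 and 7205 and 7413 in CFAE+8. MEF medium had 5038 and 5056 CPM. In CFAE+8+MSC, CFAE+6 and CFAE+8 the log2 fold changes of mt-Co1 against MEF medium were 0.67 ± 0.03, 0.66 ± 0.03 and 0.53 ± 0.03 (± SE, adjusted p = 2.6e-17, 4.0e-17 and 6.8e-15). Its bases 1063 to 1545 match Gm29216 on chromosome 1 except for A1066T, the mt-Co1 base first and positions counted from the start of mt-Co1, and 51.1% of its 50-base stretches occur elsewhere. mt-Nd4, with 62.2% of such stretches shared with Gm28439, had 1350.2 and 1299 CPM in CFAE+8+MSC, 1348 and 1331 in CFAE+6 and 1167 and 1212 in CFAE+8, against 874 and 829.5 CPM in MEF medium. Both genes were higher in all cocktail libraries than in both MEF medium libraries, mt-Nd4 by 0.64 ± 0.04, 0.65 ± 0.04 and 0.48 ± 0.04 on the log2 scale in CFAE+8+MSC, CFAE+6 and CFAE+8.

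**Figure D2:**
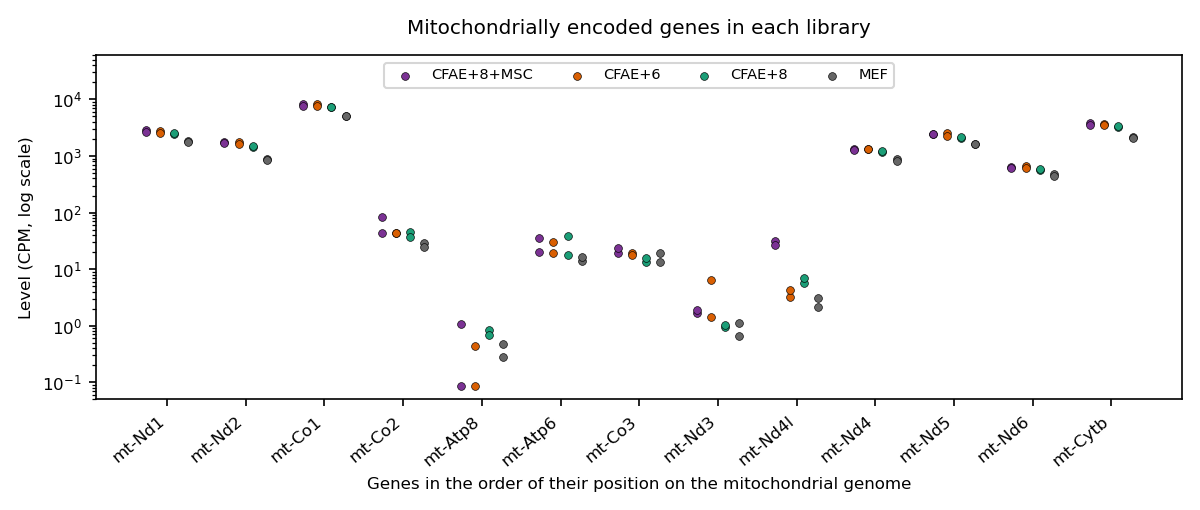
Level of each mitochondrially encoded gene (CPM, log axis) in each library, in the order of the genes along the mitochondrial genome, with colours for the 4 media. For mt-Co1 the cocktail libraries lie between 7205 and 8318 CPM and MEF medium at 5038 and 5056 CPM, and mt-Nd4l stands at 26.5 and 31.1 CPM in CFAE+8+MSC.

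The heavy-strand genes mt-Atp6, mt-Co2, mt-Co3, mt-Nd3 and mt-Nd4l shared at least 98% of their 50-base stretches with chromosome 1 copies. Together with mt-Atp8 they held under 1% of the mitochondrial counts. How reads that match both a gene and its copy were counted is unknown, so levels of these copied genes cannot be read as abundance. The part of that setting in their low counts was not tested. mt-Co2, a complex IV subunit that takes electrons from cytochrome c, had 509 and 904 counts in CFAE+8+MSC, 490 and 514 in CFAE+6 and 520 and 428 in CFAE+8, against 301 and 266 counts in MEF medium. Its copy Gm28661 had 459 and 835 counts in CFAE+8+MSC, 451 and 423 in CFAE+6 and 387 and 353 in CFAE+8, against 315 and 294 counts in MEF medium. CFAE+8+MSC replicate 2 was high for both the gene and the copy. The log2 fold change of mt-Co2 against MEF medium was 1.25 ± 0.16 in CFAE+8+MSC, 0.72 ± 0.17 in CFAE+6 and 0.61 ± 0.17 in CFAE+8 (adjusted p = 1.3e-07, 0.00054 and 0.003), and the call in CFAE+8 was lost without MEF replicate 2, at 0.49.

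mt-Co3, the third complex IV subunit of the mitochondrial genome, had 19.5 and 23.7 CPM in CFAE+8+MSC, 19.04 and 17.97 in CFAE+6 and 13.5 and 15.8 in CFAE+8, against 13.3 and 18.96 CPM in MEF medium. It was called higher in CFAE+8+MSC (log2 0.42 ± 0.15, adjusted p = 0.016), and this call was lost without CFAE+8+MSC replicate 2 (0.28) or MEF replicate 1 (0.19). In CFAE+6 and CFAE+8 it stood at 0.19 ± 0.15 and -0.14 ± 0.16 and did not pass, but in CFAE+6 it was called higher without MEF replicate 2 (0.47), by total counts (0.35) and with its copy added (0.34). mt-Atp6 of complex V had 19.9 and 35.2 CPM in CFAE+8+MSC, 19.6 and 30.6 in CFAE+6 and 38.9 and 17.9 in CFAE+8, against 14.1 and 16.7 CPM in MEF medium. The replicates of each cocktail differed by 1.5 times or more, and its calls of 0.84 ± 0.25, 0.71 ± 0.25 and 0.88 ± 0.25 against MEF medium were each lost when the higher cocktail library was left out (0.38, 0.35 and 0.22 without CFAE+8+MSC replicate 2, CFAE+6 replicate 2 and CFAE+8 replicate 1). They were also lost without MEF replicate 1 (0.73, 0.60 and 0.77), and in CFAE+6 without MEF replicate 2 (0.83). mt-Atp8, which overlaps mt-Atp6, had 1 to 12 counts and passed in no comparison.

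mt-Nd3, a small complex I subunit, had 19 and 21 counts in CFAE+8+MSC, 16 and 76 in CFAE+6 and 11 and 12 in CFAE+8, against 7 and 12 counts in MEF medium. CFAE+6 replicate 2 stood alone at 76 counts. The log2 fold change of 2.15 ± 0.52 against MEF medium (adjusted p = 0.00064) was 0.67 without that library and did not pass. Its copy Gm28438 had 240 and 226 counts in CFAE+8+MSC, 237 and 228 in CFAE+6 and 181 and 171 in CFAE+8, against 103 and 111 counts in MEF medium, and for it the cocktail libraries lay above MEF medium in every case. With gene and copy summed, an alternative chosen after the data were seen, the log2 fold change was 1.04 in CFAE+8+MSC against MEF medium. In CFAE+8 it was 0.55, and both passed the test. The summed counts in CFAE+6 were 253 and 304, above the 110 and 123 in MEF medium.

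mt-Nd4l, the complex I subunit whose sequence is given above, showed the largest difference between media among the members. It had 359 and 293 counts in CFAE+8+MSC, 37 and 49 in CFAE+6 and 67 and 83 in CFAE+8, against 32 and 23 counts in MEF medium. Both CFAE+8+MSC libraries lay far above all others, and CFAE+8 lay above both CFAE+6 and MEF medium. Its copy Gm10222 had 55 and 64 counts in CFAE+8+MSC, 66 and 58 in CFAE+6 and 55 and 58 in CFAE+8, against 28 and 39 counts in MEF medium, and there CFAE+8+MSC did not stand apart from CFAE+6 and CFAE+8. The log2 fold change of mt-Nd4l was 3.48 ± 0.20 in CFAE+8+MSC against MEF medium and 1.31 ± 0.25 in CFAE+8 against MEF medium (adjusted p = 3.2e-15 and 3.6e-05). CFAE+6 against MEF medium gave 0.54 ± 0.27 (adjusted p = 0.087), and was called higher without MEF replicate 1 (0.83), by total counts (0.69) and with the copy added (0.68). CFAE+8+MSC exceeded CFAE+8 by 2.17 ± 0.17 and CFAE+6 by 2.94 ± 0.19 (adjusted p = 2.3e-11 and 1.8e-12), which is 4.51-fold and 7.70-fold. With gene and copy summed, the counts were 414 and 357 in CFAE+8+MSC, 103 and 107 in CFAE+6, against 60 and 62 in MEF medium, and both CFAE+8 libraries lay between CFAE+8+MSC and CFAE+6. The log2 fold change of the sum was then smaller, 1.61 against CFAE+8, 1.90 against CFAE+6 and 2.58 against MEF medium in CFAE+8+MSC, and all 3 passed the test. The calls of CFAE+8+MSC held without either of its libraries. The gene ends where mt-Nd4 begins, with an overlap of 7 bases, and mt-Nd4 did not show this pattern. The sources used here do not give how reads that match both mt-Nd4l and Gm10222 were counted, and the part of that setting in this difference was not tested.

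**Figure D3:**
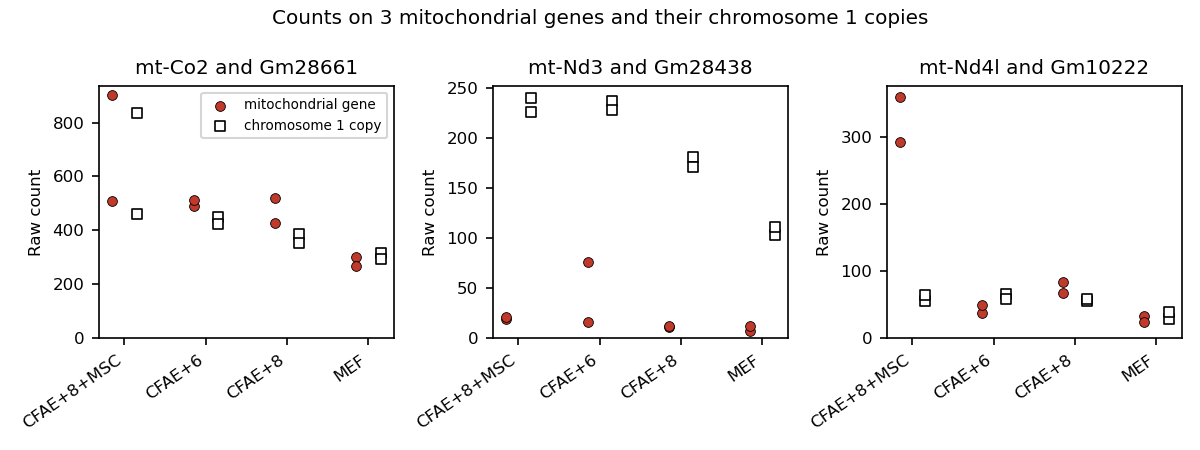
Raw counts (vertical axes, from 0) of mt-Co2, mt-Nd3 and mt-Nd4l (filled circles) and of their chromosome 1 copies Gm28661, Gm28438 and Gm10222 (open squares) in each library, by medium. mt-Nd4l stands at 359 and 293 counts in CFAE+8+MSC while Gm10222 has 55 and 64 there.

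The non-coding RNAs of the mitochondrial genome did not all follow the protein-coding genes. The 12S ribosomal RNA mt-Rnr1 had 127 and 127 CPM in CFAE+8+MSC, 124 and 133 in CFAE+6 and 118 and 115 in CFAE+8, against 147 and 140.3 CPM in MEF medium. It fell against MEF medium by 0.18 ± 0.06 in CFAE+8+MSC, by 0.17 ± 0.06 in CFAE+6 and by 0.31 ± 0.06 in CFAE+8 on the log2 scale (adjusted p = 0.0072, 0.014 and 4.4e-05). The fall depended on the scaling, since by total counts mt-Rnr1 stood at -0.05 in CFAE+8+MSC and -0.01 in CFAE+6 without a call, and at -0.13 in CFAE+8 (adjusted p = 0.049). The calls in CFAE+8+MSC and CFAE+6 were also lost without MEF replicate 1 (-0.14 and -0.13), and that in CFAE+6 without CFAE+6 replicate 1 (-0.11). The 16S ribosomal RNA mt-Rnr2 rose by 0.21 ± 0.06 in CFAE+8+MSC and 0.25 ± 0.06 in CFAE+6, and stood at 0.06 ± 0.06 in CFAE+8 (adjusted p = 0.41). The call in CFAE+8+MSC was lost without CFAE+8+MSC replicate 1 (0.11), and by total counts CFAE+8 passed as well (0.23). The light-strand transfer RNA mt-Tp had 13.9 and 15.4 CPM in CFAE+8+MSC, 17.9 and 17.03 in CFAE+6 and 15.3 and 15.8 in CFAE+8, against 23.7 and 25.01 CPM in MEF medium, and fell in all 3 cocktails (log2 -0.74 ± 0.13, -0.48 ± 0.12 and -0.65 ± 0.12). Of the 22 transfer RNA genes 10 were tested, and the others called were chosen for mention after their values were seen. Without strand in the counts, reads of a transfer RNA cannot be told from those of the precursor on the opposite strand. The strand named here is that of the gene and not of the reads. mt-Tn on the light strand was lower in all 3 cocktails (-0.54 ± 0.21, -0.59 ± 0.21 and -0.90 ± 0.21), but without MEF replicate 1 none of these calls held (-0.18, -0.23 and -0.55). By total counts its calls in CFAE+8+MSC (-0.41) and CFAE+6 (-0.43) were lost, as they were without CFAE+8+MSC replicate 2 (-0.38) and without CFAE+6 replicate 2 (-0.38). mt-Tc, on the same strand, was lower in CFAE+6 and CFAE+8 (-0.48 ± 0.20 and -0.46 ± 0.19), and both calls were lost by total counts (-0.32 and -0.29) and without single libraries, among them either MEF library (-0.45 to -0.49) and cocktail libraries (-0.22 without CFAE+6 replicate 2 and -0.27 without CFAE+8 replicate 1). In the other direction, the heavy-strand transfer RNAs mt-Tl1 and mt-Tl2 were called higher in CFAE+6 (0.93 ± 0.28 and 0.89 ± 0.30, adjusted p = 0.0055 and 0.01). These calls were lost without CFAE+6 replicate 2 (0.75 and 0.66) or MEF replicate 2 (0.69 and 0.64), and by DESeq2 (adjusted p = 0.063 and 0.099). DESeq2 also did not call mt-Tc in CFAE+6 or CFAE+8, mt-Tn in CFAE+8+MSC or CFAE+6, or mt-Rnr1 in CFAE+6 (smallest adjusted p = 0.057). The ratio of mitochondrial protein-coding to ribosomal RNA counts was 43.6 ± 1.503 in CFAE+8+MSC, 41.8 ± 0.0580 in CFAE+6 and 43.1 ± 1.06 in CFAE+8, against 28.7 ± 0.508 in MEF medium (SD, n = 2 each). The labels do not say whether poly(A) RNA was selected, and ribosomal RNA made up at most 0.0516% of the counts of a library.

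The nuclear-encoded genes did not move together against MEF medium. In CFAE+8+MSC 23 of 86 were called higher and 20 lower, where 31.9% of all genes tested were called higher and 32.2% lower. In CFAE+6 38 were called higher and 5 lower, where 31.6% and 31.5% of all genes were, and in CFAE+8 28 were higher and 14 lower, where 30.8% and 31.3% were. The shares of nuclear members called higher were thus 26.7% in CFAE+8+MSC, 44.2% in CFAE+6 and 32.6% in CFAE+8. Their median log2 fold change was -0.01, 0.15 and 0.09 in that order. Without TMM scaling, by total counts alone, the median of all genes lay 0.14, 0.18 and 0.19 above 0 in these comparisons, and the nuclear split became 36 higher and 8 lower in CFAE+8+MSC, 54 and 3 in CFAE+6, and 50 and 4 in CFAE+8. The mitochondrial genes called higher by total counts numbered 11, 12 and 10. All genes then split into 38.8% higher and 26.7% lower in CFAE+8+MSC, 40.4% and 25.2% in CFAE+6, and 40.6% and 24.4% in CFAE+8. Without MEF replicate 1 fewer nuclear genes were called lower in CFAE+8+MSC and CFAE+8, as in CFAE+8+MSC without CFAE+8+MSC replicate 1. In these fits fewer of all genes tested were called lower too. Without CFAE+6 replicate 2 more nuclear genes, but fewer of all genes, were called lower in CFAE+6.

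The scaling moved the splits within the nuclear groups as well. By total counts, the accessory subunits of complex I called higher and lower against MEF medium numbered 7 and 4 in CFAE+8+MSC, 15 and 2 in CFAE+6, and 12 and 2 in CFAE+8. The core subunits numbered 2 and 1 in CFAE+8+MSC and 4 and 1 in CFAE+8, and the Ndufaf genes 3 and 1 in CFAE+8+MSC and 3 and 0 in CFAE+8. In complex II 2 were higher and 0 lower in CFAE+8+MSC and in CFAE+8, and in complex III 5 were higher and 1 lower in CFAE+8+MSC. In complex IV 9 and 10 were higher in CFAE+8+MSC and CFAE+8, with 0 lower, and in complex V 8 were higher and 1 lower in CFAE+8+MSC, and 13 higher and 0 lower in CFAE+8. Overlapping genes cover 47.9% of the exon bases of Atp5o (ENSMUSG00000022956) and all those of the other entry of that name, 39% of Ndufb6, 30.0% of Ndufa13, 19.7% of Uqcrc2, 19.5% of Ndufb9 and 11.5% to 12.9% of Ndufa2, Ndufb5, Ndufb11, Cox5a and Atp5j, so that without strand the counts of these genes are uncertain.

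**Figure D4:**
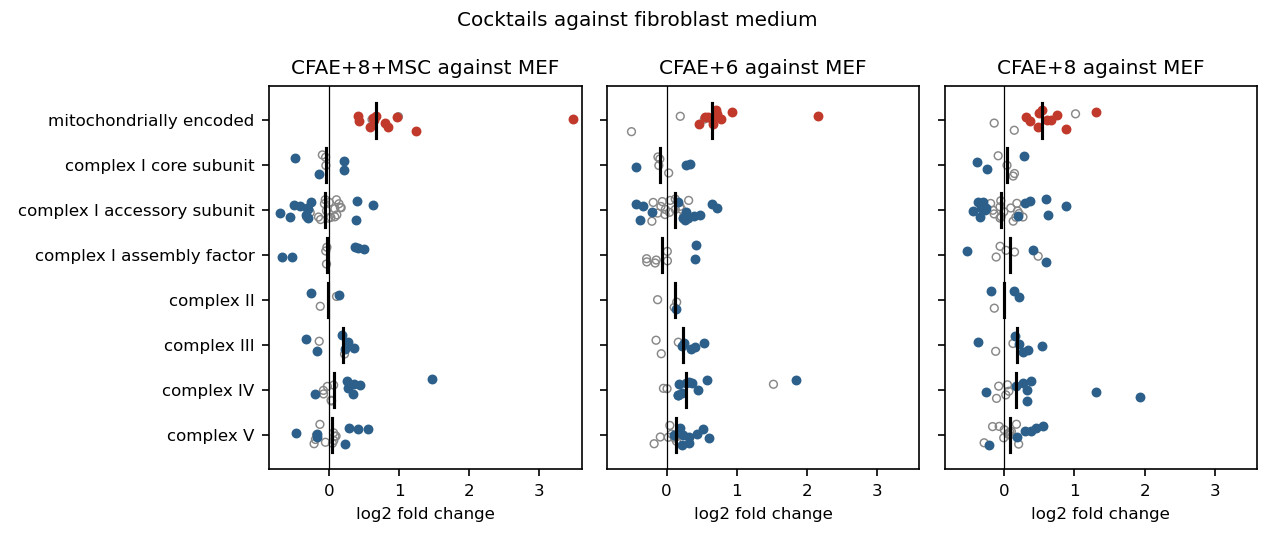
Log2 fold change (horizontal axes) of each tested member in CFAE+8+MSC, CFAE+6 and CFAE+8 against MEF medium, by complex and role; each point is a gene, filled points passed the test at an adjusted p below 0.05, open points did not, and vertical bars are medians. Mitochondrial genes centre at 0.67, 0.65 and 0.53, and nuclear genes spread on both sides of 0.

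Of the 7 tested core subunits of complex I, 2 were called higher and 2 lower in CFAE+8+MSC against MEF medium, Ndufv2 and Ndufs3 among the higher and Ndufs8 among the lower. In CFAE+6 Ndufv2 and Ndufs3 were higher and Ndufs8 was lower, and in CFAE+8 Ndufs3 was higher and Ndufs8 and Ndufv1 were lower. Ndufs8, an iron-sulfur subunit near the ubiquinone site, had 35.7 and 34.999 CPM in CFAE+8+MSC, 34.1 and 38.4 in CFAE+6 and 38.1 and 37.4 in CFAE+8, against 51.5 and 46.99 CPM in MEF medium. All cocktail libraries lay below both MEF medium libraries. The log2 fold changes against MEF medium were -0.48 ± 0.09, -0.44 ± 0.09 and -0.38 ± 0.09 in CFAE+8+MSC, CFAE+6 and CFAE+8 (± SE, adjusted p = 3.2e-05, 8.7e-05 and 0.00041). Ndufv2, an iron-sulfur subunit of the NADH-oxidising tip, had 66.4 and 66.6 CPM in CFAE+8+MSC, 72.5 and 71.9 in CFAE+6 and 63.2 and 63.4 in CFAE+8, against 58.5 and 55.97 CPM in MEF medium. Its log2 fold changes were 0.22 ± 0.07, 0.34 ± 0.07 and 0.15 ± 0.07, the first 2 past the test, and the call in CFAE+8+MSC was lost without MEF replicate 2 (0.18). Ndufs3, another subunit of the arm in the matrix, stood at 0.21 ± 0.09, 0.28 ± 0.09 and 0.29 ± 0.09. Its calls were lost without MEF replicate 1 (0.16, 0.23 and 0.24 in the 3 cocktails), and also without replicate 2 of CFAE+8+MSC (0.13) or CFAE+8 (0.19).

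The 29 accessory subunits of complex I were called in both directions, as were all genes tested. In CFAE+8+MSC against MEF medium Ndufab1, Ndufb11 and Ndufc2 were called higher and 9 genes lower. In CFAE+6 9 were higher, and Ndufv3, Ndufa9, Ndufs4 and Ndufa13 were lower. In CFAE+8 6 were higher and 7 lower. The shares called higher and lower were 10.3% and 31.0% in CFAE+8+MSC, beside 31.9% and 32.2% of all genes, 31.0% and 13.8% in CFAE+6, beside 31.6% and 31.5%, and 20.7% and 24.1% in CFAE+8, beside 30.8% and 31.3%. Ndufab1, the mitochondrial acyl carrier protein, had 64.6 and 52.2 CPM in CFAE+8+MSC, 62.2 and 62.1 in CFAE+6 and 59.4 and 54.7 in CFAE+8, against 36.1 and 39.4 CPM in MEF medium, without overlap between cocktails and MEF medium. Against MEF medium, Ndufab1 rose by 0.63 ± 0.09, 0.72 ± 0.09 and 0.60 ± 0.09 on the log2 scale in CFAE+8+MSC, CFAE+6 and CFAE+8 (± SE, adjusted p = 8.1e-07, 7.0e-08 and 2.1e-06).

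Ndufs4, an accessory subunit needed for a stable complex I in mice and humans, had 23.4 and 22.4 CPM in CFAE+8+MSC, 30.7 and 28.2 in CFAE+6 and 34.7 and 31.97 in CFAE+8, against 42.95 and 31.7 CPM in MEF medium. CFAE+8+MSC lay lowest, below every other library. Its log2 fold change was -0.70 ± 0.12 in CFAE+8+MSC (adjusted p = 6.9e-06), -0.34 ± 0.11 in CFAE+6 (adjusted p = 0.011) and -0.16 ± 0.11 in CFAE+8 (adjusted p = 0.21). The call in CFAE+6 was lost without MEF replicate 1 (-0.10) or CFAE+6 replicate 2 (-0.28), and by total counts (-0.18), and CFAE+8 passed without MEF replicate 2 (-0.37). Ndufv3, an accessory subunit of the NADH-oxidising tip, had log2 fold changes of -0.55 ± 0.10, -0.44 ± 0.10 and -0.34 ± 0.10 in CFAE+8+MSC, CFAE+6 and CFAE+8, the last lost without CFAE+8 replicate 1 (-0.20) or MEF replicate 1 (-0.23) and by total counts (-0.17).

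Ndufb4 and Ndufa11 are subunits of the membrane arm, and the first was lowest in CFAE+8 and the second in CFAE+8+MSC. Ndufb4 had 21.1 and 19.99 CPM in CFAE+8+MSC, 20.8 and 22.9 in CFAE+6 and 19.1 and 18.1 in CFAE+8, against 26.7 and 23.9 CPM in MEF medium, and fell in CFAE+8 (log2 -0.44 ± 0.12, adjusted p = 0.0018). Its call in CFAE+8+MSC of -0.30 ± 0.12 was lost without either CFAE+8+MSC library (-0.33 and -0.25), without MEF replicate 1 (-0.21) and by total counts (-0.17). Ndufa11 had 28.1 and 28.3 CPM in CFAE+8+MSC, 35.5 and 42.3 in CFAE+6 and 33.6 and 29.2 in CFAE+8, against 41.1 and 34.2 CPM in MEF medium. It was lower in CFAE+8+MSC than in MEF medium (-0.41 ± 0.11, adjusted p = 0.0016), a call lost without MEF replicate 1 (-0.27). In CFAE+8 the call of -0.26 ± 0.11 was lost without CFAE+8 replicate 2 (-0.16) or MEF replicate 1 (-0.12) and by total counts (-0.09). Ndufa12, an accessory subunit related to Ndufaf2, had 8.14 and 12.2 CPM in CFAE+8+MSC, 9.61 and 12.5 in CFAE+6 and 11.95 and 22.6 in CFAE+8, against 10.3 and 8.52 CPM in MEF medium. CFAE+8 replicate 2 stood alone, and the call of 0.88 ± 0.22 in CFAE+8 was lost without it (0.35). Of its 50-base stretches, 17.7% occur in another gene, so its counts are uncertain. The same limit holds for Ndufb4 (18.3%), Ndufs3 (17.9%), Cox7a2l (13.8%) and Atp5g1 (11.1%). Of the 92 nuclear members, 22 share at least 10% of such stretches with another gene.

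The 8 assembly factors of complex I help to build the complex and are not part of it. Ndufaf4, Ndufaf2 and Ndufaf5 were called higher and Ndufaf3 and Ndufaf8 lower in CFAE+8+MSC against MEF medium. Ndufaf4 had 19.7 and 20.5 CPM in CFAE+8+MSC, 18.6 and 19.1 in CFAE+6 and 14.2 and 14.6 in CFAE+8, against 14.2 and 14.1 CPM in MEF medium. Both CFAE+8+MSC and CFAE+6 lay above CFAE+8 and MEF medium, by 0.51 ± 0.13 and 0.41 ± 0.13 against MEF medium (adjusted p = 0.0011 and 0.0066), whereas CFAE+8 stood at 0.02 ± 0.13. Ndufaf3 had 6.67 and 7.14 CPM in CFAE+8+MSC, 8.29 and 9.67 in CFAE+6 and 10.2 and 9.92 in CFAE+8, against 12.1 and 9.80 CPM in MEF medium, and fell in CFAE+8+MSC (-0.66 ± 0.18, adjusted p = 0.0025), a call lost without MEF replicate 1 (-0.50). Ndufaf8 was lower in CFAE+8+MSC (log2 -0.52 ± 0.18) and CFAE+8 (-0.53 ± 0.18), and both calls were lost without MEF replicate 2 (-0.45 and -0.46), without 1 of the cocktail libraries (CFAE+8+MSC replicate 2, -0.48, and CFAE+8 replicate 1, -0.50) and by total counts (-0.39 and -0.36). Ndufaf2, with 65.6% of its exon bases under an overlapping gene, was higher by 0.59 ± 0.17 in CFAE+8. Ndufaf2 in CFAE+8+MSC and CFAE+6 and Ndufaf5 in CFAE+8+MSC and CFAE+8 stood at 0.37 to 0.42, and each of these calls was lost without MEF replicate 1 (0.32 to 0.37). Ndufaf2 was also lost without CFAE+8+MSC replicate 1 (0.31) or CFAE+6 replicate 2 (0.34), and Ndufaf5 without CFAE+8+MSC replicate 2 (0.28), MEF replicate 2 (0.42) or CFAE+8 replicate 2 (0.34).

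The 4 genes of complex II, the chain's link to the tricarboxylic acid cycle, changed by small amounts. Sdha, the flavoprotein with the catalytic site, had 212 and 229 CPM in CFAE+8+MSC, 219 and 215 in CFAE+6 and 217 and 220.2 in CFAE+8, against 202 and 195 CPM in MEF medium. Every cocktail library lay above both MEF medium libraries, by 0.15 ± 0.05, 0.13 ± 0.05 and 0.14 ± 0.05 on the log2 scale (adjusted p = 0.014, 0.034 and 0.024). These calls were lost without MEF replicate 2 (0.12, 0.10 and 0.11) and without single cocktail libraries (CFAE+8+MSC replicate 2, and either library of CFAE+6 and of CFAE+8, 0.10 to 0.15).

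Sdhb, the iron-sulfur subunit, had 81.4 and 77.8 CPM in CFAE+8+MSC, 97.1 and 89.9 in CFAE+6 and 79.7 and 72.2 in CFAE+8, against 89.5 and 83.9 CPM in MEF medium. It was lower in CFAE+8 than in MEF medium (-0.19 ± 0.07, adjusted p = 0.019), a call lost without CFAE+8 replicate 2 (-0.12) or MEF replicate 1 (-0.14) and by total counts (-0.02). The membrane anchor Sdhc was lower in CFAE+8+MSC (-0.25 ± 0.08, lost at -0.13 without CFAE+8+MSC replicate 2, at -0.18 without MEF replicate 2 and at -0.12 by total counts). The other anchor, Sdhd, was higher in CFAE+8 (0.20 ± 0.07, lost at 0.14 without CFAE+8 replicate 1 and at 0.18 without MEF replicate 1).

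Of the 8 nuclear members of complex III, Cyc1 left out, Uqcr10, Uqcrfs1, Uqcrh and Uqcrc1 were called higher in CFAE+8+MSC than in MEF medium. Uqcrq and Uqcrc2 were called lower there. In CFAE+6 Uqcr10, Uqcrh, Uqcr11, Uqcrc1 and Uqcrfs1 were higher. In CFAE+8 Uqcr10, Uqcrb, Uqcrh, Uqcrfs1 and Uqcrc1 were higher, and Uqcrq was lower. The share called higher was 62.5% in CFAE+6 and CFAE+8, beside 31.6% and 30.8% of all genes tested. Uqcr10, a small subunit, had 66.9 and 67.5 CPM in CFAE+8+MSC, 72.5 and 79.9 in CFAE+6 and 79.04 and 73.4 in CFAE+8, against 57.02 and 47.9 CPM in MEF medium, with no overlap. On the log2 scale Uqcr10 differed from MEF medium by 0.36 ± 0.08, 0.54 ± 0.08 and 0.54 ± 0.08 in CFAE+8+MSC, CFAE+6 and CFAE+8 (± SE, adjusted p = 0.00037, 1.1e-06 and 1.1e-06). Uqcrq, a small subunit that contacts cytochrome b, had 81.1 and 87.9 CPM in CFAE+8+MSC, 86.4 and 105 in CFAE+6 and 84.2 and 80.1 in CFAE+8, against 113 and 99.4 CPM in MEF medium. It fell in CFAE+8+MSC (-0.33 ± 0.08, adjusted p = 0.00056) and CFAE+8 (-0.37 ± 0.08, adjusted p = 0.00015), and CFAE+6 overlapped MEF medium at -0.15 ± 0.08. In CFAE+6 it was called lower without CFAE+6 replicate 2 (-0.30) or MEF replicate 2 (-0.25). Uqcrb was higher in CFAE+8 by 0.33 ± 0.11, lost without MEF replicate 1 (0.29), and shares 25.5% of its 50-base stretches with other genes.

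In complex IV, 6 of 13 tested nuclear genes were called higher in CFAE+8+MSC than in MEF medium, 10 in CFAE+6 and 7 in CFAE+8, and Cox6a1 was called lower in CFAE+8+MSC and CFAE+8. The shares called higher were 46.2%, 76.9% and 53.8%, beside 31.9%, 31.6% and 30.8% of all genes tested. Cox6b2 (ENSMUSG00000051811, chr7:4751792-4753094, minus strand, mm10), the isoform of subunit 6b known from testis, showed the largest change of any well-counted nuclear member. It had 50.5 and 58.8 CPM in CFAE+8+MSC, 68.4 and 73.5 in CFAE+6 and 47.7 and 49.8 in CFAE+8, against 21.4 and 18.2 CPM in MEF medium. All cocktail libraries lay above both MEF medium libraries, and CFAE+6 lay above the other cocktails. In CFAE+8+MSC, CFAE+6 and CFAE+8 the log2 fold changes of Cox6b2 against MEF medium were 1.46 ± 0.10, 1.84 ± 0.10 and 1.30 ± 0.10 (± SE, adjusted p = 1.5e-13, 3.4e-16 and 2.9e-12), or 2.76, 3.59 and 2.46 times the MEF medium level. The widely expressed isoform Cox6b1 had 115 and 117 CPM in CFAE+8+MSC, 127 and 129 in CFAE+6 and 113 and 116 in CFAE+8, against 115 and 110.1 CPM in MEF medium, and its log2 fold changes were 0.04 ± 0.06, 0.18 ± 0.06 and 0.02 ± 0.06. Cox6b1 passed in CFAE+6, and not without MEF replicate 2 (0.14).

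The isoforms of other complex IV subunits known from heart and skeletal muscle were at or near 0. Cox6a2 had 1 to 5 counts and Cox8b 0 to 2 counts in each library, and neither was tested. The testis isoforms Cox7b2 and Cox8c had at most 1 count, where 3 counts are at most 0.285 CPM. Cox7a1, the muscle isoform of subunit 7a, had 3 and 3 counts in CFAE+8+MSC, 11 and 8 in CFAE+6 and 16 and 10 in CFAE+8, against 5 and 1 counts in MEF medium. Its call of 1.94 ± 0.72 in CFAE+8 was lost without CFAE+8 replicate 1 (1.56) or MEF replicate 2 (1.19). The widely expressed Cox7a2 had 64.2 and 61.9 CPM in CFAE+8+MSC, 61.9 and 65.99 in CFAE+6 and 69.1 and 63.02 in CFAE+8, against 54.3 and 51.3 CPM in MEF medium, and rose by 0.26 ± 0.08, 0.28 ± 0.08 and 0.32 ± 0.08, the first lost without MEF replicate 2 (0.21).

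Cox6a1, the widely expressed isoform of subunit 6a, had 194 and 205 CPM in CFAE+8+MSC, 209 and 234 in CFAE+6 and 194 and 188 in CFAE+8, against 240.1 and 217 CPM in MEF medium. It was lower in CFAE+8 (-0.26 ± 0.06, adjusted p = 0.00042) and in CFAE+8+MSC (-0.20 ± 0.06). The call in CFAE+8+MSC was lost without CFAE+8+MSC replicate 1 (-0.15) or MEF replicate 1 (-0.11), and both by total counts (-0.06 in CFAE+8+MSC and -0.08 in CFAE+8). Cox8a had 188 and 206 CPM in CFAE+8+MSC, 221 and 230.3 in CFAE+6 and 232 and 234 in CFAE+8, against 197 and 189 CPM in MEF medium, and rose in CFAE+6 and CFAE+8 (0.23 ± 0.05 and 0.27 ± 0.05) but stood at 0.03 ± 0.05 in CFAE+8+MSC.

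Cox7a2l, a factor that joins complexes III and IV, had 98.7 and 89.4 CPM in CFAE+8+MSC, 98.1 and 101 in CFAE+6 and 79.04 and 68.3 in CFAE+8, against 89.2 and 66.6 CPM in MEF medium. It was higher in CFAE+8+MSC (0.27 ± 0.09) and CFAE+6 (0.36 ± 0.09) than in MEF medium, and both calls were lost without MEF replicate 2 (0.07 and 0.15). The first was also lost without CFAE+8+MSC replicate 1 (0.20). Cox7b stood at -0.08 ± 0.06, 0.17 ± 0.06 and 0.05 ± 0.06, and Ndufa4 at 0.07 ± 0.06, 0.16 ± 0.06 and 0.07 ± 0.06. Both passed in CFAE+6, and neither did so without MEF replicate 2 (0.13 for each). Cox7b was also lost without CFAE+6 replicate 1 (0.11) and Ndufa4 without CFAE+6 replicate 2 (0.13). Ndufa4l2, a relative of Ndufa4 induced by low oxygen, had 2 and 1 counts in CFAE+8+MSC, 0 and 1 in CFAE+6 and 2 and 2 in CFAE+8, against 6 and 22 in MEF medium, and was not tested. Of the genes left out by the choice of symbols, Cox4i1 had 266 and 288 CPM in CFAE+8+MSC, 291 and 316 in CFAE+6 and 247 and 256 in CFAE+8, against 302 and 294 CPM in MEF medium and was lower in CFAE+8 (-0.24 ± 0.05, adjusted p = 0.00019, and -0.07 by total counts without a call). Cox4i1 was higher in CFAE+6 than in CFAE+8 (0.27 ± 0.05, adjusted p = 0.00021), and in CFAE+8+MSC than in CFAE+8 (0.14 ± 0.05, adjusted p = 0.047). Its low-oxygen isoform Cox4i2 stayed at or below 1.67 CPM and passed in no comparison.

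In complex V, Atp5mpl, Atp5g3, Atp5c1 and Atp5a1 of 17 tested genes were called higher in CFAE+8+MSC than in MEF medium, and Atp5l, Atp5j and Atp5j2 lower. In CFAE+6 9 were higher. In CFAE+8 Atp5mpl, Atp5c1, Atp5g3, Atp5a1 and Atp5h were higher and Atp5e was lower. The shares called higher were 23.5%, 52.9% and 29.4%, beside 31.9%, 31.6% and 30.8% of all genes tested. Atp5mpl, a small proteolipid of the membrane part, had 60.2 and 51.2 CPM in CFAE+8+MSC, 61.9 and 53.8 in CFAE+6 and 59.4 and 52.2 in CFAE+8, against 40.8 and 35.4 CPM in MEF medium, without overlap. The log2 fold changes against MEF medium were 0.55 ± 0.10, 0.60 ± 0.10 and 0.55 ± 0.10 in CFAE+8+MSC, CFAE+6 and CFAE+8 (± SE, adjusted p = 1.5e-05, 3.7e-06 and 1.4e-05). Atp5e, the epsilon subunit of the catalytic part, was lower in CFAE+8 (log2 -0.21 ± 0.09, adjusted p = 0.049). This call was lost without MEF replicate 1 (-0.01), without either CFAE+8 library (-0.23 and -0.18), without CFAE+8+MSC replicate 1 or 2 or CFAE+6 replicate 1 (-0.21 each) and by total counts (-0.04).

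Atp5g1, Atp5g2 and Atp5g3 encode the same mature subunit of the rotating c ring. Atp5g3 had 260.3 and 250.2 CPM in CFAE+8+MSC, 275 and 275 in CFAE+6 and 246 and 251 in CFAE+8, against 198 and 186 CPM in MEF medium. Against MEF medium, Atp5g3 rose by 0.41 ± 0.05, 0.52 ± 0.05 and 0.38 ± 0.05 on the log2 scale in CFAE+8+MSC, CFAE+6 and CFAE+8 (± SE, adjusted p = 4.2e-08, 4.2e-10 and 2.4e-07). Atp5g1 had 52.6 and 56.7 CPM in CFAE+8+MSC, 62.1 and 67.4 in CFAE+6 and 54.4 and 55.6 in CFAE+8, against 65.5 and 57.98 CPM in MEF medium, with log2 fold changes of -0.18 ± 0.08, 0.07 ± 0.08 and -0.17 ± 0.08 that did not pass. Without MEF replicate 2 it was called lower in CFAE+8+MSC (-0.27) and CFAE+8 (-0.26), and by total counts higher in CFAE+6 (0.23). Atp5g2 stood at -0.05 ± 0.07, 0.14 ± 0.06 and 0.10 ± 0.06, also without a call, and shares 38.3% of its 50-base stretches with other genes. It was called higher in CFAE+6 by total counts (0.30), with upper-quartile scaling (0.18), without MEF replicate 1 (0.22), and at 0.15 to 0.16 with the stricter filter, in a fit over these 2 media or without CFAE+8 replicate 1, CFAE+8 replicate 2 or CFAE+8+MSC replicate 2. In CFAE+8 it was called higher by total counts (0.28) and without CFAE+8 replicate 1 (0.20).

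Atp5l, subunit g of the membrane part, had 47.8 and 42.96 CPM in CFAE+8+MSC, 69.7 and 66.2 in CFAE+6 and 63.9 and 55.6 in CFAE+8, against 65.9 and 59.8 CPM in MEF medium. Both CFAE+8+MSC libraries lay below all others. The log2 fold change of CFAE+8+MSC was -0.47 ± 0.08 against MEF medium, -0.40 ± 0.08 against CFAE+8 and -0.58 ± 0.08 against CFAE+6 (adjusted p = 2.1e-05, 0.00055 and 1.3e-05). CFAE+6 and CFAE+8 stood at 0.11 ± 0.08 and -0.07 ± 0.08 against MEF medium and did not pass.

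In CFAE+8+MSC, which adds MSC2530818 to CFAE+8, most mitochondrial genes were higher than in CFAE+8, and 72 of 86 nuclear genes were not called. Of the 13 mitochondrial genes, 9 were called higher in CFAE+8+MSC than in CFAE+8, where 15.6% of all genes tested were called higher and 29.3% in either direction. By edgeR 0 were lower, as at an unadjusted p below 0.05 and by DESeq2. The median log2 fold change was 0.16. mt-Nd2 and mt-Nd5 were higher by 0.22 ± 0.04 and 0.21 ± 0.04, and mt-Co1 by 0.14 ± 0.03 (adjusted p = 8.0e-05, 0.00011 and 0.0012). For these 3 genes both CFAE+8+MSC libraries lay above both CFAE+8 libraries. Against a 1.2-fold change, 2 of the 9 passed. Calls of mt-Cytb (0.14 ± 0.03) and mt-Nd1 (0.13 ± 0.04) were lost without CFAE+8+MSC replicate 1 (0.10 for each), those of mt-Nd1 and mt-Nd4 (0.16 ± 0.04) without CFAE+8 replicate 1 (0.12 and 0.13), and that of mt-Co2 (0.64 ± 0.15) without CFAE+8+MSC replicate 2 (0.13). The call of mt-Co3 (0.56 ± 0.15) was lost without CFAE+8+MSC replicate 2 (0.42) or CFAE+8 replicate 1 (0.45).

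Of the 86 nuclear genes, Ndufaf4, Cox7a2l and Cox6c were called higher in CFAE+8+MSC than in CFAE+8 and 11 lower, where 15.6% of all genes tested were called higher and 13.8% lower. By total counts 2 were called higher and 17 lower, beside 13.5% and 17.2% of all genes tested. Without CFAE+8 replicate 2 fewer were called lower, among the nuclear members and among all genes. Ndufs4 fell by 0.54 ± 0.12 on the log2 scale (adjusted p = 0.00073), and both CFAE+8+MSC libraries lay below both CFAE+8 libraries. Ndufaf4 rose by 0.48 ± 0.13 (adjusted p = 0.0043) and Cox7a2l by 0.35 ± 0.09, the second lost without CFAE+8+MSC replicate 1 (0.28) or CFAE+8 replicate 2 (0.26). Cox8a fell by 0.24 ± 0.05 (adjusted p = 0.0009). Uqcrb stood at -0.47 ± 0.11, lost without CFAE+8+MSC replicate 1 (-0.23), and Ndufa12 at -0.77 ± 0.22, lost without CFAE+8 replicate 2 (-0.23) or CFAE+8+MSC replicate 1 (-0.50). The call of Ndufaf3 (-0.55 ± 0.18) was lost without any single library of the pair (-0.49 to -0.59), as was that of Cox7a1 (-1.63 to -2.31).

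With E-616452 in place of A-83-01, that is in CFAE+6 against CFAE+8, 7 mitochondrial genes were called higher and mt-Nd4l lower, where 14.3% of all genes tested were called higher, 12.3% lower and 26.6% in either direction. The median log2 fold change was 0.13. mt-Nd2 was higher by 0.19 ± 0.04, mt-Nd5 by 0.17 ± 0.04 and mt-Nd4 by 0.17 ± 0.04 (adjusted p = 0.00065, 0.0009 and 0.0012). For each of them both CFAE+6 libraries lay above both CFAE+8 libraries. Without CFAE+8 replicate 1 fewer were called higher, among the mitochondrial genes and among all genes tested. Then mt-Co1 (0.11), mt-Cytb (0.10), mt-Nd4 (0.14) and mt-Nd6 (0.13) no longer passed. mt-Cytb was also lost without CFAE+8 replicate 2 (0.12) or CFAE+6 replicate 1 (0.08), and mt-Nd6 without CFAE+6 replicate 1 (0.11). mt-Nd3 (0.52 without CFAE+6 replicate 2) and mt-Nd4l (-0.60 without CFAE+6 replicate 1, -0.61 without CFAE+8 replicate 2, -0.29 with its copy added) did not pass in these settings.

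Of the 86 nuclear genes, 15 were called higher and Ndufa12 and Ndufaf5 lower in CFAE+6 against CFAE+8, beside 14.3% and 12.3% of all genes tested. By total counts 10 were called higher and 3 lower, beside 13.3% and 13.4% of all genes. Fewer were called higher without CFAE+6 replicate 2 or either CFAE+8 library, among the nuclear members and among all genes. Cox6b2 rose by 0.54 ± 0.08 (adjusted p = 1.1e-05), with both CFAE+6 libraries at 68.4 and 73.5 CPM above both CFAE+8 libraries at 47.7 and 49.8 CPM. Cox7a2l rose by 0.44 ± 0.09 (adjusted p = 0.00041). Sdhb rose by 0.30 ± 0.07 (adjusted p = 0.0014), lost without CFAE+8 replicate 2 (0.23), and Ndufaf4 by 0.39 ± 0.13 (adjusted p = 0.023), lost without any single library of the pair (0.37 to 0.41). Ndufa12 stood at -0.64 ± 0.21, and at -0.11 without CFAE+8 replicate 2 and -0.46 without CFAE+6 replicate 1, neither past the test.

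Further calls of CFAE+6 over CFAE+8 were each lost without 1 or more of the 4 libraries. They were Ndufb6 (0.32 ± 0.10, 0.24 without CFAE+6 replicate 2 and 0.26 without CFAE+8 replicate 2), Ndufa11 (0.31 ± 0.11, 0.18 and 0.21 without the same libraries), Cox6a1 (0.21 ± 0.06, 0.13 and 0.19 likewise) and Atp5g1 (0.24 ± 0.08, 0.17 without CFAE+6 replicate 2, 0.22 without CFAE+8 replicate 1 and 0.25 without CFAE+8 replicate 2). Uqcrq (0.22 ± 0.08) stood at 0.07 without CFAE+6 replicate 2, 0.26 without CFAE+8 replicate 1, 0.19 without CFAE+8 replicate 2 and 0.20 by total counts. Ndufv2 (0.19 ± 0.07), Cox6b1 (0.16 ± 0.06) and Atp5g3 (0.14 ± 0.05) were lost without any single library of the pair and by total counts. Ndufaf5 (-0.40 ± 0.15) stood at -0.26 without CFAE+6 replicate 2, -0.48 without CFAE+8 replicate 1 and -0.32 without CFAE+8 replicate 2.

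**Figure D5:**
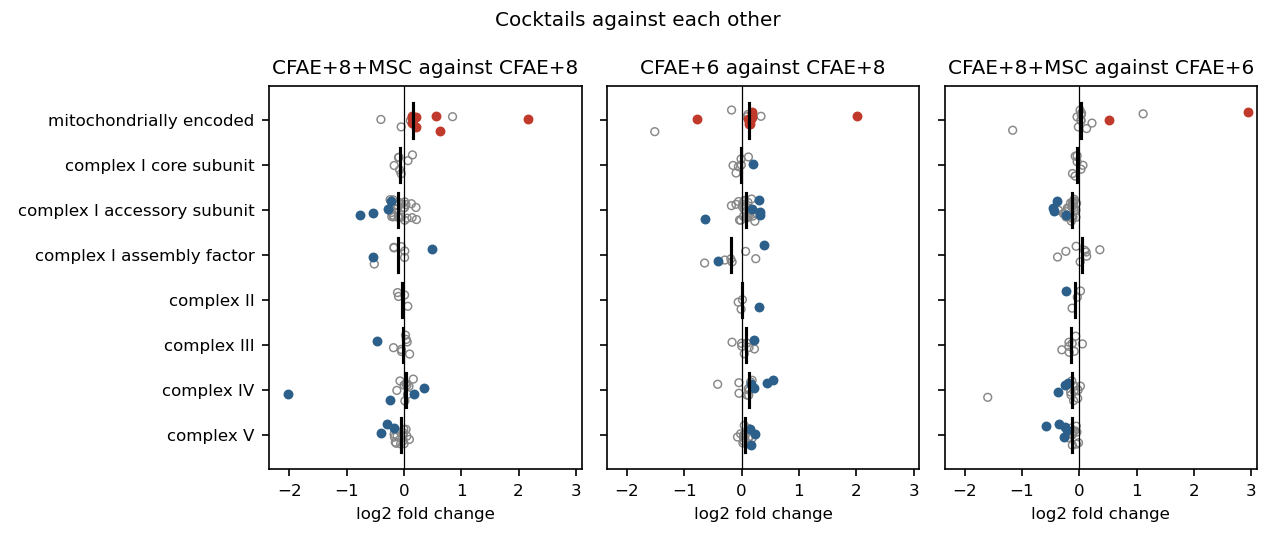
Log2 fold change (horizontal axes) of each tested member between cocktails, by complex and role; each point is a gene, filled points passed the test at an adjusted p below 0.05, open points did not, and vertical bars are medians. In CFAE+8+MSC against CFAE+8 the mitochondrial median is 0.16 and the nuclear median -0.05, and mt-Nd4l is the point at 2.17.

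CFAE+8+MSC and CFAE+6, the pair that differs in both MSC2530818 and the receptor inhibitor, had the smallest median difference of the mitochondrial genes among the pairs of cocktails. mt-Nd4l and mt-Co2 were called higher in CFAE+8+MSC, where 6.21% of all genes tested were called higher and 10.5% in either direction, and the median log2 fold change was 0.03. mt-Co2 rested on CFAE+8+MSC replicate 2 (0.02 without it), and was also lost without either CFAE+6 library (0.51 and 0.54). By edgeR 0 mitochondrial genes were called lower, where 1, mt-Nd3, had an unadjusted p below 0.05 and DESeq2 called 0. Without CFAE+6 replicate 1, mt-Nd3 was called lower, at -1.87. The 7 mitochondrial genes above 100 CPM differed by -0.04 to 0.04 on the log2 scale, with SE of 0.03 to 0.05.

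The nuclear genes called between CFAE+8+MSC and CFAE+6 were all lower in CFAE+8+MSC. By edgeR 13 of 86 were called lower, where 4.27% of all genes tested were, and 0 were called higher, where 1 had an unadjusted p below 0.05 and DESeq2 called 0. The median log2 fold change was -0.12. Without CFAE+8+MSC replicate 1 or CFAE+6 replicate 2 fewer were called lower, among the nuclear members and among all genes tested. Over all alternatives the nuclear median stayed between -0.17 (without CFAE+6 replicate 1) and -0.09 (without CFAE+6 replicate 2). Atp5l, given above, fell the most. Ndufa11 fell by 0.46 ± 0.11 (adjusted p = 0.0042, and -0.33 without CFAE+6 replicate 2, no longer past the test). Cox6b2 fell by 0.38 ± 0.08 (adjusted p = 0.0026, and -0.27 without CFAE+8+MSC replicate 1, no longer past the test). Of the others named above, Sdhb (-0.23 ± 0.07), Cox7b (-0.25 ± 0.06), Cox8a (-0.19 ± 0.05) and Atp5g1 (-0.25 ± 0.08) were each lost without CFAE+8+MSC replicate 1 (-0.26, -0.23, -0.13 and -0.19). Other single libraries ended these calls too, CFAE+6 replicate 1 for Sdhb (-0.17) and Cox7b (-0.18), CFAE+6 replicate 2 for Cox8a (-0.17) and Atp5g1 (-0.18), and CFAE+8+MSC replicate 2 for Sdhb (-0.20) and Atp5g1 (-0.30).

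Of the 15 tested regulators of mitochondrial biogenesis, 4 were called higher and 5 lower in CFAE+8+MSC against MEF medium, 4 and 5 in CFAE+6, and 6 and 5 in CFAE+8. These are 26.7% and 33.3% in CFAE+8+MSC and in CFAE+6, near the 31.9% and 32.2% and the 31.6% and 31.5% of all genes tested, and 40% and 33.3% in CFAE+8, beside 30.8% and 31.3%. Ppargc1a, the coactivator PGC-1 alpha, had 5.02 and 7.51 CPM in CFAE+8+MSC, 7.93 and 10.01 in CFAE+6 and 4.95 and 5.51 in CFAE+8, against 1.24 and 1.74 CPM in MEF medium. On the log2 scale Ppargc1a differed from MEF medium by 2.06 ± 0.30, 2.58 ± 0.29 and 1.80 ± 0.31 in CFAE+8+MSC, CFAE+6 and CFAE+8 (± SE, adjusted p = 8.0e-07, 5.0e-09 and 9.6e-06). Its level in every cocktail library was above both MEF medium libraries, and CFAE+6 exceeded CFAE+8 by 0.78 ± 0.23, adjusted p = 0.01, a call lost without CFAE+6 replicate 2 (0.60) or CFAE+8 replicate 1 (0.70). Esrra, the estrogen-related receptor alpha, had 72.4 and 75.9 CPM in CFAE+8+MSC, 78.7 and 89.4 in CFAE+6 and 77.8 and 77.9 in CFAE+8, against 45.6 and 43.6 CPM in MEF medium. It rose by 0.73 ± 0.08, 0.92 ± 0.08 and 0.80 ± 0.08 (largest adjusted p = 1.8e-09). Gabpb1, the partner of GABPA, rose by 0.53 ± 0.10, 0.70 ± 0.10 and 0.52 ± 0.10.

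Myc, a transcription factor of growth and mitochondrial biogenesis, had 47.8 and 47.9 CPM in CFAE+8+MSC, 43.3 and 42.97 in CFAE+6 and 27.2 and 27.6 in CFAE+8, against 83.2 and 84.8 CPM in MEF medium. It fell in all 3 cocktails, by 0.81 ± 0.07, 0.96 ± 0.07 and 1.61 ± 0.08 on the log2 scale in CFAE+8+MSC, CFAE+6 and CFAE+8, and CFAE+8 was lowest. Also lower in all 3 were Tfeb at -0.73 ± 0.19, -1.06 ± 0.20 and -0.98 ± 0.19, Gabpa at -0.30 ± 0.08, -0.32 ± 0.08 and -0.28 ± 0.07, and Pprc1 at -0.19 ± 0.06, -0.33 ± 0.06 and -0.39 ± 0.06. By total counts Gabpa was not called in CFAE+6 (-0.16) or CFAE+8 (-0.10), nor Pprc1 in CFAE+8+MSC (-0.05), and Gabpa in CFAE+8 was also lost without CFAE+8 replicate 1 (-0.20). Pprc1 in CFAE+8+MSC was lost without CFAE+8+MSC replicate 2 (-0.14) or MEF replicate 2 (-0.15). Yy1 stood at -0.17 ± 0.06, -0.16 ± 0.06 and -0.16 ± 0.06, its calls were lost without MEF replicate 2 (-0.12, -0.10 and -0.10) and without CFAE+8+MSC replicate 1 (-0.15), CFAE+6 replicate 1 (-0.13) or CFAE+8 replicate 2 (-0.12). By total counts it was called in none of the 3 and stood at 0.02 in CFAE+8.

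Nrf1 was higher by 0.23 ± 0.09 in CFAE+6 and 0.31 ± 0.09 in CFAE+8, and both calls were lost without MEF replicate 1 (0.16 and 0.24), the first also without CFAE+6 replicate 2 (0.19). Creb1 was higher by 0.23 ± 0.09 in CFAE+8+MSC (lost without CFAE+8+MSC replicate 2, 0.13, or MEF replicate 2, 0.18) and 0.35 ± 0.09 in CFAE+8, and Sirt1 by 0.36 ± 0.11 in CFAE+8 (lost without MEF replicate 2, 0.32). Ppargc1b, Ppara, Ppard and Sirt3 passed in no comparison with MEF medium, apart from Ppard by total counts (0.23 in CFAE+6 and 0.19 in CFAE+8). Esrrb and Esrrg had under 1 CPM in each library and were not tested.

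In the other lists of mitochondrial genes, too, calls went both ways, as they did among all genes tested, of which 31.9% were called higher and 32.2% lower in CFAE+8+MSC against MEF medium, 31.6% and 31.5% in CFAE+6, and 30.8% and 31.3% in CFAE+8. Of 77 tested genes of the mitochondrial ribosome, 16 were called higher and 13 lower in CFAE+8+MSC against MEF medium, 22 and 6 in CFAE+6, and 18 and 10 in CFAE+8. The shares of the mitochondrial ribosome called higher and lower were 20.8% and 16.9% in CFAE+8+MSC, 28.6% and 7.8% in CFAE+6, and 23.4% and 13% in CFAE+8, each below the share of all genes. Mrps26 rose by 0.44 ± 0.08 and Mrpl54 stood at -0.91 ± 0.11 in CFAE+8, the smallest adjusted p in each direction. Of the assembly factors other than the Ndufaf genes, 4 of 38 were called higher (Acad9, Cox17, Cox19 and Tmem70) and 12 lower in CFAE+8+MSC, 6 and 12 in CFAE+6, and Acad9 higher and 11 lower in CFAE+8. Acad9, at 0.23 ± 0.08 in CFAE+8, was lost there without CFAE+8 replicate 1 or MEF replicate 2 (0.20 each). Uqcc2, needed to make cytochrome b, had 12.6 and 14.02 CPM in CFAE+8+MSC, 13.4 and 20.9 in CFAE+6 and 16.5 and 16.96 in CFAE+8, against 32.6 and 28.9 CPM in MEF medium, with no overlap.

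Of 30 genes of mitochondrial transcription, RNA processing and DNA maintenance, 4 were called higher (Polrmt, Ssbp1, Lrpprc and Elac2) and 4 lower (Tfb1m, Tfb2m, Top1mt and Rexo2) in CFAE+8+MSC against MEF medium. In CFAE+6 5 were higher (Ssbp1, Pnpt1, Supv3l1, Elac2 and Hsd17b10) and 3 lower (Tfb1m, Tfb2m and Rexo2), and in CFAE+8 3 were higher (Ssbp1, Pnpt1 and Elac2) and 5 lower (Tfb2m, Polg, Top1mt, Fastkd1 and Rexo2). The shares called lay between 10% and 16.7% in either direction, where 30.8% to 32.2% of all genes were called. Rexo2, a mitochondrial oligoribonuclease, had 59.9 and 64.5 CPM in CFAE+8+MSC, 54.1 and 61.4 in CFAE+6 and 50.3 and 46.3 in CFAE+8, against 122 and 115 CPM in MEF medium, and fell by 0.93 ± 0.07, 1.03 ± 0.07 and 1.29 ± 0.07 in the 3 cocktails. Pnpt1, a mitochondrial polynucleotide phosphorylase, rose by 0.38 ± 0.10 in CFAE+8. Of 15 electron carrier genes, Cycs, Cyc1 and Pdss1 were called higher in each cocktail. Those called lower were Etfa, Etfb, Etfdh, Coq3 and Coq8a in CFAE+8+MSC, all but Etfdh in CFAE+6, and Etfa, Coq3 and Coq8a in CFAE+8. Cyc1, cytochrome c1 of complex III, rose by 0.28 ± 0.06, 0.42 ± 0.06 and 0.30 ± 0.06, and Etfa, which passes electrons from fatty acid oxidation, fell by 0.75 ± 0.10, 0.73 ± 0.10 and 0.65 ± 0.10. Of 14 genes of the tricarboxylic acid cycle, 4 were called higher and 4 lower (Idh3g, Dld, Suclg2 and Sucla2) in CFAE+8+MSC. In CFAE+6 7 were higher and Ogdh, Dld and Sucla2 lower, and in CFAE+8 5 were higher and 4 lower (Cs, Idh3g, Dld and Sucla2), with Sucla2 at -0.44 ± 0.07 in CFAE+8.

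The scaling moved the splits of these lists too, and total counts called 31 higher and 5 lower of the mitochondrial ribosome in CFAE+8+MSC against MEF medium, 43 and 3 in CFAE+6, and 34 and 4 in CFAE+8. Of the assembly factors, 5 were higher and 8 lower in CFAE+8+MSC, 11 and 5 in CFAE+6, and 5 and 5 in CFAE+8, so that in CFAE+6 the balance of calls turned. For mitochondrial transcription, RNA processing and DNA maintenance the counts were 10 and 4, 10 and 3, and 10 and 1 in the same order, and for the tricarboxylic acid cycle 9 and 2, 8 and 1, and 9 and 1. Electron carriers numbered 4 higher and 4 lower in CFAE+8+MSC by total counts (3 and 5 with TMM) and 5 and 3 in CFAE+6 (3 and 4). In CFAE+8 alone their counts, 3 and 3, were the same under both scalings. The regulators of biogenesis numbered 5 and 3 in CFAE+8+MSC (4 and 5 with TMM), 6 and 3 in CFAE+6 (4 and 5), and 7 and 3 in CFAE+8 (6 and 5).

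By promoter motif, the 19 members with the NRF1 motif split into 6 called higher and 3 lower in CFAE+8+MSC against MEF medium, 9 higher in CFAE+6, and 7 higher and 4 lower in CFAE+8. Among all 72 tested members with a promoter entry the counts were 20 higher and 15 lower, 34 and 5, and 24 and 13. Sdha, Atp5g3 and Ndufaf4, whose sequences are given above, rose in CFAE+6, and Cox6a1 and Ndufa11 did not. The 8 members with the YY1 motif (Atp5j, Atp5j2, Ndufa9, Ndufaf8, Ndufc1, Ndufs4, Ndufs6 and Ndufs7) had 5 called lower in CFAE+8+MSC (all but Ndufc1, Ndufs6 and Ndufs7), Ndufa9 and Ndufs4 in CFAE+6, and Ndufa9 and Ndufaf8 in CFAE+8. The 5 with the ETS motif (Atp5h, Cox8a, Ndufs3, Uqcr11 and Uqcrh) had Ndufs3 and Uqcrh called higher in CFAE+8+MSC, all 5 in CFAE+6 and all but Uqcr11 in CFAE+8. The 8 with the ERR motif had 1 called higher and 2 lower in CFAE+8+MSC, 1 and 0 in CFAE+6, and 2 and 3 in CFAE+8. Of all genes tested, 31.9% were called higher and 32.2% lower in CFAE+8+MSC, 31.6% and 31.5% in CFAE+6, and 30.8% and 31.3% in CFAE+8. The motif groups are small and were not tested as sets.

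Outside the chain, the 5 protein-coding genes whose log2 level over the 8 libraries followed the mean of the 13 mitochondrial genes most closely were Ybey (Pearson r = 0.989), Reep1 (0.986), Col7a1 (0.986), Slit1 (0.985) and Chst11 (0.984), among 13490 genes. The 8 libraries fall into the cocktails and MEF medium, which gives many genes a high value, and the correlations are a description without a test.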

How the data were processed

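RNA was measured in 8 libraries of mouse embryonic fibroblasts, 2 for each of 4 media. The deposited table holds raw counts per gene, made by the authors with featureCounts of the Subread package on build mm10, per the submitters' processing notes, which also name DESeq2 and give no versions. The NEBNext Ultra RNA kit named in the labels' protocols does not keep strand. The aligner, the annotation release and the handling of reads with several matches are unknown from the sources at hand. Library totals were 10958430 to 11913143 counts, so 3 counts are 0.254 to 0.285 CPM.

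Genes were filtered with filterByExpr, scaled by TMM and fitted over all 8 libraries with edgeR 4.0.16 in R 4.3.3 (quasi-likelihood F test, Benjamini-Hochberg adjustment over 15470 genes, called below 0.05, 4 residual degrees of freedom). Alternatives were DESeq2 1.42.0, other scalings and filters, a test against a 1.2-fold change, a replicate block and leaving out each library. Calls lost by DESeq2 or against a 1.2-fold change are not listed for every gene. The fit was checked on simulated counts. Promoters came from RefSeq (GRCm38.p6) and were searched with Biopython 1.88 and Python 3.11.15. Shared sequence is the share of a gene's 50-base stretches found in another annotated gene.

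Named were all mitochondrial genes, Sdha to Sdhd, listed isoform pairs, the largest called rise and fall of each nuclear group and comparison among genes of at least 5 CPM, all regulators, the smallest adjusted p in each direction per further list, and the 5 genes most like the mitochondrial mean. Not every gene that this rule picks is reported here. Other genes are named only to spell out small counts and were chosen after their values were seen. The members and lists were chosen with earlier results of these data known.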

Additional observations from a re-analysis of the deposited data

How the results depend on the processing

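Total-count scaling left 36 nuclear genes higher and 8 lower in CFAE+8+MSC against MEF medium (23 and 20 with TMM). In CFAE+6 it left 3 lower (5), and in CFAE+8 50 higher and 4 lower (28 and 14). Against CFAE+8, 17 were lower in CFAE+8+MSC (11). Of all genes tested, 38.8% were then higher and 26.7% lower in CFAE+8+MSC against MEF medium. These shares were 40.4% and 25.2% in CFAE+6, and 40.6% and 24.4% in CFAE+8. In CFAE+8+MSC against CFAE+8, 17.2% were lower. DESeq2 called 12 nuclear genes lower in CFAE+8+MSC and 9 in CFAE+8 against MEF medium, 1 higher and 4 lower in CFAE+8+MSC against CFAE+8, 5 higher and 0 lower in CFAE+6 against CFAE+8, and 7 lower in CFAE+8+MSC against CFAE+6. It called 0 mitochondrial genes lower in CFAE+6 against CFAE+8 and 1 higher in CFAE+8+MSC against CFAE+6. DESeq2 called 18, 28 and 19 nuclear genes higher in CFAE+8+MSC, CFAE+6 and CFAE+8 against MEF medium. Of the 28024 genes with any count, it called 14.4%, 14.4% and 13.6% higher in that order. It called 14.8% of them lower in CFAE+8+MSC and 14.6% in CFAE+8 against MEF medium. Between cocktails its shares higher and lower were 5.82% and 4.28% in CFAE+8+MSC against CFAE+8, and 5.17% and 3.84% in CFAE+6 against CFAE+8. In CFAE+8+MSC against CFAE+6 they were 2.07% and 1.09%. Tested against a 1.2-fold change, 7 nuclear genes were higher and 6 lower in CFAE+8+MSC than in MEF medium. In CFAE+6 these were 11 and 2, and in CFAE+8 11 and 1. Of all genes tested, 23.4% were higher and 25% lower in CFAE+8+MSC, 23.3% and 24.4% in CFAE+6, and 22.6% and 24.2% in CFAE+8. Between cocktails, 0 nuclear genes were higher and 2 lower in CFAE+8+MSC against CFAE+8, and 1 and 0 in CFAE+6 against CFAE+8. In CFAE+8+MSC against CFAE+6, 1 was lower. Of all genes tested, 8.36% and 4.73%, 7.01% and 3.68%, and 1.23% and 0.575% were higher and lower in the same order. Mitochondrial genes past a 1.2-fold change between cocktails numbered 2 higher, then 1 higher and 0 lower, then 1 higher, in the same order. With the chromosome 1 copies added, chosen after seeing the data, 0 mitochondrial genes were lower in CFAE+6 against CFAE+8. Without a filter, 1 was lower in CFAE+8+MSC against CFAE+6. The cause of these shifts was not tested.

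Leaving out each library in turn gave, against MEF medium, 17 to 24 nuclear genes higher and 9 to 24 lower in CFAE+8+MSC, 26 to 40 and 4 to 10 in CFAE+6, and 20 to 30 and 9 to 17 in CFAE+8. Mitochondrial genes higher numbered 9 to 11 in CFAE+8+MSC, 8 to 10 in CFAE+6 and 9 to 10 in CFAE+8. Between cocktails, nuclear genes numbered 1 to 3 higher and 5 to 12 lower in CFAE+8+MSC against CFAE+8, 3 to 17 and 0 to 3 in CFAE+6 against CFAE+8, and 4 to 15 lower in CFAE+8+MSC against CFAE+6. Mitochondrial genes numbered 7 to 10 higher in CFAE+8+MSC against CFAE+8, 3 to 8 higher and 0 to 1 lower in CFAE+6 against CFAE+8, and 1 to 2 higher and 0 to 1 lower in CFAE+8+MSC against CFAE+6. Wherever a library of the pair was left out, smaller shares of all genes tested were called in each direction than with all libraries. By total counts Yy1 in CFAE+8 against MEF medium stood at 0.017, the reverse of its call. mt-Atp6 in CFAE+8+MSC against CFAE+8, -0.05 with all libraries, ranged over -0.51 to 0.62, the last without CFAE+8 replicate 1.

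Some values without a call passed under an alternative. Without single libraries these were Atp5e in CFAE+8+MSC and CFAE+6 against MEF medium (-0.39 and -0.27 without MEF replicate 2), Uqcrb in CFAE+8+MSC (-0.40 without CFAE+8+MSC replicate 2), Cox7a2l in CFAE+8 (-0.28 without MEF replicate 2) and Cox7a1 in CFAE+6 (3.03 without MEF replicate 1). Between CFAE+6 and CFAE+8 they were mt-Nd1 (0.14 without CFAE+6 replicate 2) and mt-Atp6 (-0.63 without CFAE+8 replicate 2). By total counts, Ndufv2 (0.32), Cox7b (0.22), Ndufa4 (0.24) and Cox6b1 (0.20) in CFAE+8, Cox8a (0.16), Ndufa4 (0.20) and Cox6b1 (0.17) in CFAE+8+MSC, and Sdhb (0.26), Sdhd (0.30) and Atp5l (0.27) in CFAE+6 were called higher than in MEF medium.

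With a replicate block, 24 nuclear genes were higher and 23 lower in CFAE+8+MSC, 37 and 5 in CFAE+6, and 28 and 14 in CFAE+8 against MEF medium, and 11, 10 and 10 mitochondrial genes were higher. The block moved no count by over 1.5 times. Over all genes tested, same-numbered libraries correlated in their deviations by -0.021 to 0.051. Noise of single libraries enters these values too, so they cannot show whether the numbers pair the libraries.

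The main limits are 2 libraries a medium, possibly technical, doses that are not known, counts without strand, and copies of mitochondrial genes. At these depths 3 counts are at most 0.285 CPM, and Cox7b2 and Cox8c were not detectable above that. The calls of mt-Co1, mt-Cytb, mt-Nd1, mt-Nd2, mt-Nd4, mt-Nd5 and mt-Nd6 against MEF medium held under every alternative run, except that mt-Nd6 in CFAE+8 did not pass against a 1.2-fold change (adjusted p = 0.112, edgeR).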
